A study of Mus musculus with 59 samples.

Results

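Most of the genes described here encode the enzymes that place or remove chemical marks on histones and DNA, and the subunits of the complexes that move nucleosomes. The rule that takes them uses gene symbols and no measured value. A peak belonged to the set where the gene that the authors' table assigns to it begins with Kmt, Kdm, Setd, Kat, Prmt, Chd or Arid and a digit, begins with Smarc or Dnmt, is a numbered Hdac, a sirtuin, a Tet enzyme, Ezh1 or Ezh2, or is Ep300, Crebbp, Eed or Suz12. The rule took 169 of 25835 H3K4me3 peaks, at 101 genes, and 387 of 54362 H3K27ac peaks, at 104 genes. Of the 18819 symbols in either table, 109 were members, and 96 of these had a peak of each mark. By its prefixes the rule also took transcription factors such as Arid3a, and Smarca5-ps, by its symbol a pseudogene. It took Dnmt3bos as well, whose H3K4me3 peak lies within 1 kb of a Dnmt3b start. The study profiled both marks in uteri of C57/B6 mice at 4 ages, with 1 library per animal and mark. The groups were aged 3 (54 to 65 weeks, n = 10), aged 2 (42 to 48 weeks, n = 6), aged 1 (28 to 36 weeks, n = 4) and young (9 to 11 weeks, n = 7). The labels name the tissue uterus, and their protocol describes native chromatin immunoprecipitation from nuclei of frozen pieces of endometrium. No treatment or genetic alteration is named in the labels used here, and oestrous stage is not given in the sources used here.

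H3K4me3 is placed at active and poised gene starts by the Kmt2 and Setd1 enzymes and removed by the Kdm5 family, and H3K27ac is placed at active starts and enhancers by Ep300 and Crebbp and removed by histone deacetylases. Remodellers of the SWI/SNF, CHD and ISWI families spend ATP to slide or evict nucleosomes, and many of them bind the marked tails that the enzymes make. In the endometrium, whose epithelium and stroma are remodelled in every cycle and in pregnancy, these proteins act with the steroid hormone receptors on gene activity. What was measured here is the marking of the genes that encode these proteins, not the proteins or their activity.

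The 54 libraries held 6.84 to 48.3 M (mega) reads for H3K4me3 and 7.60 to 16.9 M for H3K27ac. Levels are log2 RPKM, reads per kilobase of peak and per M reads, after quantile normalization within each mark. A peak was called where limma's test over all peaks of the mark gave a Benjamini-Hochberg adjusted p under 0.05. The tissue make-up read from marker genes moved with age. An epithelium minus stroma score, the mean promoter level of an epithelial list (20 of 25 genes measured for H3K4me3, 19 of 25 for H3K27ac) minus that of an endometrial stroma list (16 of 20 genes for each mark), ran from -1.26 to 2.37 in aged 3 libraries (median 1.40), against -1.32 to -0.15 in young ones (median -0.86), for H3K4me3. For H3K27ac it ran from -1.15 to 1.76 in aged 3 libraries (median 1.17), against -0.99 to 0.35 in young ones (median -0.81). Aged 3 replicates 3, 4 and 10 had scores of -0.18, -0.14 and -1.26 for H3K4me3 and 0.10, -0.14 and -1.15 for H3K27ac. For H3K4me3, the mean over 14 of 14 smooth muscle markers ran from 1.16 to 2.14 log2 RPKM in aged 3 libraries, against 1.94 to 2.67 in young ones, and that over 14 of 16 leukocyte markers from 1.88 to 2.85 in aged 3 libraries, against 1.79 to 2.15 in young ones. The mean over 11 of 12 blood endothelium markers ran from 1.91 to 2.97 in aged 3 libraries, against 1.96 to 2.51 in young ones. For H3K27ac, the medians were 1.05 in aged 3 and 1.61 in young libraries for 10 of 14 smooth muscle markers, and 1.41 in aged 3 and 0.83 in young libraries for 10 of 16 leukocyte markers. Sample codes in the column names also moved with age. Codes with the digit 6 held 3 aged 3 libraries of each mark and no young library, and mouse numbers under 100 held 3 aged 3 and 6 young libraries, against 7 aged 3 and 1 young library with numbers of 200 or more. What the digits and numbers stand for is not given in the sources used here.

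In aged 3 uteri the promoter of Tet1 carried less H3K4me3 than in young ones, by a log2 change of -0.58 ± 0.11, and the promoters of Smarcd3, Smarca2, Setd7, Hdac5 and Hdac10 carried less of both marks. The Smarca2 H3K4me3 call was lost in 12 of 17 refits without 1 library. With the tissue score in the model none of these calls was made, and the Tet1 H3K4me3 change was -0.17. The H3K4me3 changes at the Setd7, Hdac5 and Smarca2 promoters turned to 0.016, 0.02 and 0.047. Chd9 carried more of both marks just before its start, by 1.94 ± 0.47 for H3K4me3 and 1.85 ± 0.46 for H3K27ac, and inside the gene. With the tissue score the changes before the Chd9 start were 0.39 for H3K4me3 and 0.43 for H3K27ac, neither called. The values, with errors as SE, and their tests follow by role. In all, 38 of the 169 member H3K4me3 peaks differed between aged 3 and young uteri, 15 higher and 23 lower, which is 22.5% of them, where 30.7% of all 25827 H3K4me3 peaks tested did (14.2% higher and 16.4% lower). For H3K27ac, 70 of 387 member peaks differed, 23 higher and 47 lower, which is 18.1%, where 29.3% of all 54354 peaks tested did (14.4% higher and 14.9% lower). The split of the H3K27ac calls was 32 higher and 47 lower after median centring and 23 higher and 92 lower with limma-voom on recovered reads. Leaving out 1 library at a time, H3K4me3 member calls fell to 25, 24 and 25 without aged 3 replicate 2, 7 or 8. H3K27ac member calls fell to 43, 46 and 43 without young replicate 1, 2 or 3 and to 45 and 46 without aged 3 replicate 6 or 9, and were 107 without aged 3 replicate 10. Of the calls, 23 of 38 and 32 of 70 were made in every such refit, and losses in the 17 refits without 1 aged 3 or young library are given below beside each p and, for genes given by counts, as a number of calls made in every refit. Promoter peaks and others were counted apart, with no test of the difference. A promoter peak is one that reaches within 1 kb of a RefSeq start of its own gene. Of the 107 promoter H3K27ac peaks, 0 rose and 19 fell in aged 3 uteri, where 26.1% of all promoter peaks were called, 6.74% higher and 19.3% lower. Of the 105 promoter H3K4me3 peaks, 2 rose and 13 fell, where 27.3% of all promoter peaks were called, 9% higher and 18.3% lower. Away from promoters, 13 of 64 H3K4me3 peaks rose and 10 fell, where 34.1% of all such peaks were called, 19.6% higher and 14.5% lower. For H3K27ac, 23 of 280 such peaks rose and 28 fell, where 30.2% of all such peaks were called, 16.6% higher and 13.6% lower. The split away from promoters moved with the scaling, to 20 higher and 41 lower H3K27ac peaks on the values as deposited and 23 higher and 60 lower with limma-voom, and to 8 higher and 9 lower H3K4me3 peaks on the values as deposited.

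The shift of the member promoters was small, and promoters of all genes shifted the same way. The median log2 change of the member H3K27ac promoters was -0.18, with 86.0% of them below 0, and that of all H3K27ac promoter peaks was -0.14, with 69.4% below 0. The member H3K4me3 promoters had a median of -0.06, with 66.7% below 0, against -0.04 and 58.7% for all promoter peaks. After median centring in place of quantile normalization the member H3K27ac promoters had a median of -0.09, with 11 lower and 0 higher, and on the values as deposited it was -0.18, with 12 lower and 0 higher. On the values as deposited the median of all peaks was -0.14 for each mark, and the member H3K4me3 promoters had a median of -0.18, with 4 lower and 0 higher. A list of 102 other chromatin regulators that the symbol rule does not take gave 9 lower and 0 higher of 71 promoters for H3K27ac (median -0.16) and 11 lower and 0 higher of 74 for H3K4me3 (median -0.04).

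The counts changed where tissue and library values entered the fit. With this tissue score added to the model, 0 member peaks were called by limma in either mark, and 21 H3K4me3 and 25 H3K27ac member peaks had an unadjusted p under 0.05, against 60 and 126 without it. Of the called peaks, 10 of 38 and 7 of 70 turned sign with it, and for those named below the value stands beside the p. A call without such a value was not thereby unchanged. Some kept their sign with a change near 0, such as H3K4me3 at Hdac7 (0.015 with the score, 0.31 without) and in Kdm2b (0.038 and 0.79). Others moved little, such as H3K27ac peaks in Hdac5 (0.55 with the score, 0.56 without) and in Setd5 (0.55 and 0.52). At the peaks of smallest p per mark and direction, the changes with the score were -0.17 (Tet1 promoter) and 0.50 (broad Chd9 domain) for H3K4me3. For H3K27ac they were -1.08 (Arid3a) and 0.43 (before the Chd9 start). Without the score they were -0.58, 1.49, -0.99 and 1.85 in that order. The called Kat6b H3K4me3 peak changed by 1.24 with the score and 1.22 without it. With the code digit as a factor 10 H3K4me3 and 2 H3K27ac member peaks were called, without the libraries of digit 6 there were 8 and 5, and with a term for the 2 ranges of mouse numbers there were 14 and 22. Among the 3 aged 3 and 6 young libraries with numbers under 100 alone, 0 were called in either mark, with 28 and 41 at an unadjusted p under 0.05. That threshold passes a share of 0.05 of peaks where nothing changes. The shares of all peaks called in these fits are not given here, so the counts do not set the members apart from other peaks. The part of tissue make-up and of these codes in the changes was not tested beyond these fits, and in whole tissue fewer cells of a type and less of the mark per cell cannot be told apart.

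Both marks had a promoter peak at 92 member genes, and at 91 of them the peaks overlapped. Changes were below 0 in both marks at 56 genes, above 0 in both at 8 and of opposite sign at 28. A call in both marks was made at 5 of the 92, Setd7, Smarcd3, Hdac5, Hdac10 and Smarca2, lower in every case. H3K4me3 alone was called at 8 genes and H3K27ac alone at 11. Among all promoter peaks 18.3% were called lower for H3K4me3 and 19.3% for H3K27ac, and 58.7% and 69.4% had changes below 0. Counts over both marks were not made for all genes, so it was not tested whether the members differ from other genes here. The marks come from the same animals, so they are not independent samples.

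**Figure D1:**
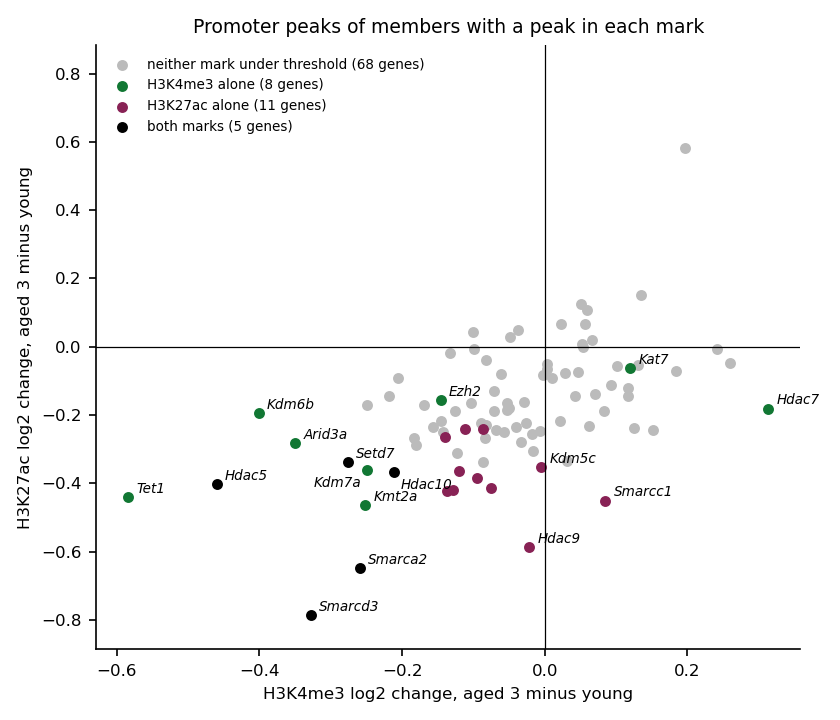
The log2 change of promoter H3K27ac (y axis) against that of promoter H3K4me3 (x axis), aged 3 over young, for the 92 member genes with a promoter peak of each mark. Colours give the call, and the 5 genes called in both marks lie in the lower left of the plot.

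Promoter sequence was taken from RefSeq on build GRCm38.p6, as 250 bases before to 50 bases after a gene's start, with 119 windows for 87 members. The windows were rich in CpG, with a median of 22 CpG and 61.7% G+C, where all 32851 windows had medians of 7 and 52.7%. GGGCGG, the GC box bound by Sp1-type factors, was found on either strand in 66.4% of member windows and 35.7% of all windows, and TATAAA in 4.20% and 13.6%. CCAAT was in 40.3% and 37.4%, the ETS core CCGGAAG in 14.3% and 8.86%, and TGACGTCA in 0.84% and 1.79%. All windows include those of genes without a peak here. Windows of other promoters with a peak were not compared, so these shares do not set the members apart from marked promoters in general. The 4 windows of genes called lower in both marks at the start shown (Setd7, Smarcd3, Hdac5 and Smarca2) and those of Tet1 and Kmt2a, called for H3K4me3 alone, are given 5′ to 3′ on the gene's strand, with capitals for a match to any of these 5 motifs in either direction. Setd7 had no match and 21 CpG, Kmt2a 5 GC boxes and 36 CpG, and Smarcd3, with 40 CpG, 2 GC boxes that overlap.
Setd7, chr3:51560774-51561073, minus strand: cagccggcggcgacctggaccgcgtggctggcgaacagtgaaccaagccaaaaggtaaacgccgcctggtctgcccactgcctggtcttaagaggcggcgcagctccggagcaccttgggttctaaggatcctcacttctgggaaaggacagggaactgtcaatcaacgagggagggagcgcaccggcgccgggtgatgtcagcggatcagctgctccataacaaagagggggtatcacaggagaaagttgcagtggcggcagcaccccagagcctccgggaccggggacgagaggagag
Smarcd3, chr5:24601953-24602252, minus strand: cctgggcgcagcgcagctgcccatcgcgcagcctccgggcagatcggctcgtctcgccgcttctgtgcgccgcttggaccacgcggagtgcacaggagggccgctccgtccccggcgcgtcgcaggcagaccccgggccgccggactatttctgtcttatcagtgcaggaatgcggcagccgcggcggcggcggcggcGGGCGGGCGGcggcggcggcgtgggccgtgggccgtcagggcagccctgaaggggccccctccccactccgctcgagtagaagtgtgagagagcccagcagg
Hdac5, chr11:102230123-102230422, minus strand: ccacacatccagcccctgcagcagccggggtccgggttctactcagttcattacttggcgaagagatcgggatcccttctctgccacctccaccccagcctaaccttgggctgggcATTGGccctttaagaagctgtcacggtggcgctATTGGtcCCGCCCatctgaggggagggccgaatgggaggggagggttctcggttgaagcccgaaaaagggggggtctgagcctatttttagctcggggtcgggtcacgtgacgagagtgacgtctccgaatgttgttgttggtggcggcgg
Smarca2, chr19:26604910-26605209, plus strand: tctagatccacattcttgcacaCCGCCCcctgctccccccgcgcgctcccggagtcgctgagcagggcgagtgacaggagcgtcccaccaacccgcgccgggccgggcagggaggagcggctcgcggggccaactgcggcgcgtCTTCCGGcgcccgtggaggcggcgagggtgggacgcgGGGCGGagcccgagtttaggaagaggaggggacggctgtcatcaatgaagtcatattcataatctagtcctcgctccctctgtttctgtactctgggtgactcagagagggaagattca
Tet1, chr10:62887275-62887574, minus strand: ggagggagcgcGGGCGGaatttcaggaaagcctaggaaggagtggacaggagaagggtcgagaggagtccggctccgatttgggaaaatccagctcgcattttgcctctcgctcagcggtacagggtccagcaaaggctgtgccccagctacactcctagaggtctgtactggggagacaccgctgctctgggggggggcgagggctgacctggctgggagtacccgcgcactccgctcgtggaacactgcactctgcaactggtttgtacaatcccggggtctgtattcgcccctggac
Kmt2a, chr9:44881240-44881539, minus strand: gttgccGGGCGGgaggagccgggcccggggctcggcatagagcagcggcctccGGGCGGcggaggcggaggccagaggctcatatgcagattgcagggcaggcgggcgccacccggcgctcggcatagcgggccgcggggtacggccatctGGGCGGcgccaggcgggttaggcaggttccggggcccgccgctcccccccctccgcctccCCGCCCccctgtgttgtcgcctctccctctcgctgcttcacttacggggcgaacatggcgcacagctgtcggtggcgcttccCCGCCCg

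**Figure D2:**
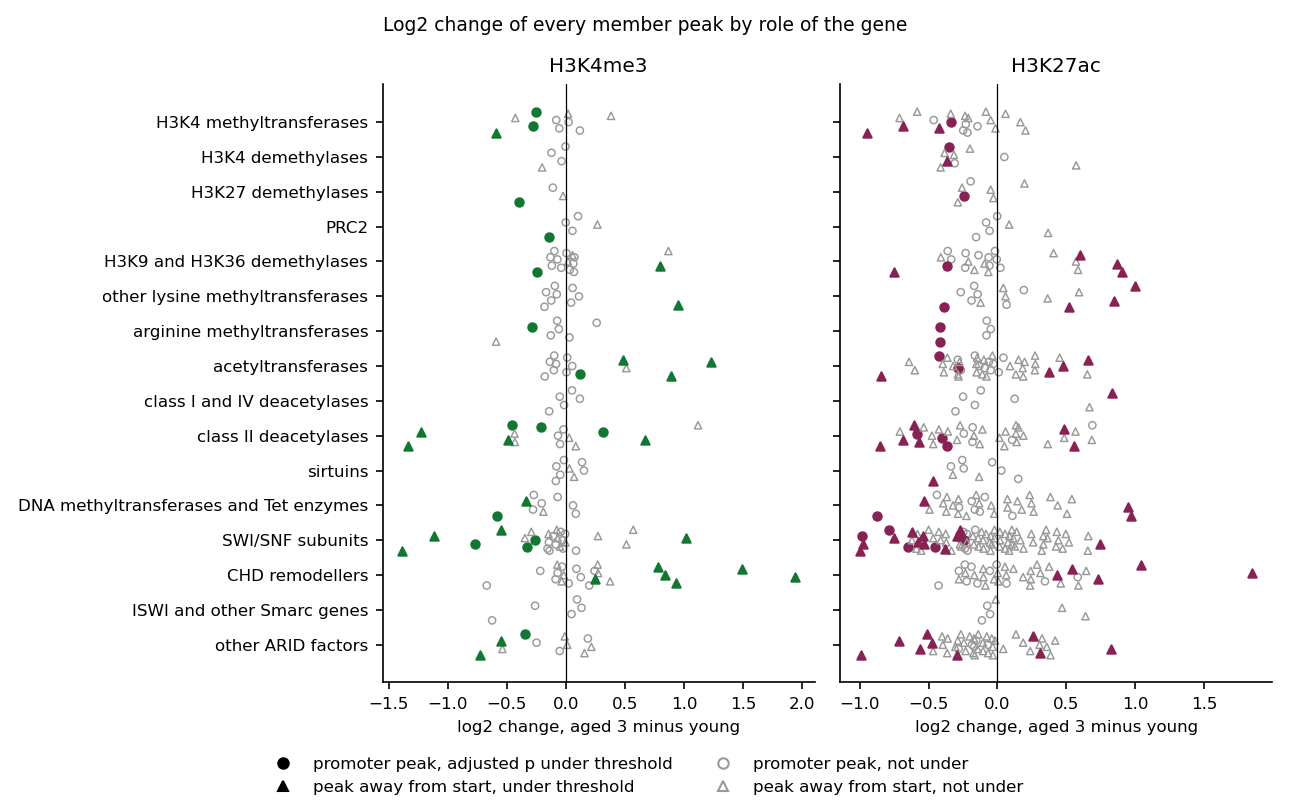
The log2 change between aged 3 and young uteri (x axis) of every member peak, in 16 rows by the role of the gene, for H3K4me3 and H3K27ac. Circles are promoter peaks, triangles are peaks away from promoters and filled symbols have an adjusted p under 0.05; the called CHD remodeller peaks lie right of 0 and 16 of the 17 called SWI/SNF H3K27ac peaks lie left of it.

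Counts by role follow, to be read against the shares of all peaks called, 14.2% higher and 16.4% lower for H3K4me3 and 14.4% higher and 14.9% lower for H3K27ac; no role was tested against the rest. Subunits of SWI/SNF, the complexes built around the ATPases Smarca2 (BRM) and Smarca4 (BRG1), had 1 higher and 16 lower of 80 H3K27ac peaks and 1 higher and 6 lower of 27 H3K4me3 peaks in aged 3 uteri, which is 1.25% higher and 20% lower for H3K27ac and 3.7% higher and 22.2% lower for H3K4me3. Of their 11 H3K27ac promoter peaks, 6 fell, at 5 genes, and 0 rose, where 19.3% of all promoter peaks were lower and 6.74% higher. The split depended on the scaling away from promoters, since median centring gave 6 higher and 16 lower H3K27ac peaks and the values as deposited 2 higher and 18 lower. The lower H3K27ac calls include a peak assigned to Smarcc2 that starts at chr10:128489189. The Smarcc2 H3K4me3 peak starting at chr10:128489981, centred 33650 bases from the Smarcc2 start, has a start of Myl6 within 1 kb. The gene of the subunit Smarcd3 (BAF60C), studied in heart and skeletal muscle, had the SWI/SNF promoter with the smallest p in each mark, at the internal RefSeq start whose sequence is printed above.

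The Smarcd3 H3K27ac peak at chr5:24600702-24606207 ran from 0.97 to 2.58 log2 RPKM in the 10 aged 3 libraries (median 1.53), against 2.14 to 2.61 in the 7 young libraries (median 2.48). Of the aged 3 libraries 9 lay below the lowest young one, and replicate 3, at 2.58, lay within the young range. The log2 change was -0.79 ± 0.17 (SE, limma adjusted p = 0.00334). H3K4me3 at the same start ran from 3.01 to 3.60 in aged 3 libraries (median 3.26), against 3.43 to 3.76 in young ones (median 3.62), and 10 of 10 aged 3 libraries were under the young mean, with 6 below the lowest young library. Its log2 change was -0.33 ± 0.09 (adjusted p = 0.00728), and at the most upstream start of the gene it was -0.77 ± 0.26 (adjusted p = 0.0268, lost in 5 of 17 refits, and 0.22 with the tissue score) for H3K4me3 and -0.98 ± 0.27 (adjusted p = 0.0101) for H3K27ac.

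Smarca2, the ATPase itself, had 5 of its 8 H3K27ac peaks called lower and 0 called higher, and this count was 5 under the values as deposited and under median centring as well. Of the 5 calls, 3 were made in every refit. Its promoter, which also holds a start of Gm52395, had an H3K27ac change of -0.65 ± 0.18 (adjusted p = 0.013). The promoter H3K4me3 change of -0.26 ± 0.10 (adjusted p = 0.0499, lost in 12 of 17 refits, and 0.047 with the tissue score) was the weakest call among its peaks. Inside the gene, H3K4me3 at chr19:26758073-26758922, 153424 bases from the gene start, ran from 0.60 to 2.62 in aged 3 libraries (median 1.18), against 1.86 to 2.81 in young ones (median 2.60). The lowest young library was above 8 aged 3 libraries, and the change was -1.12 ± 0.25 (adjusted p = 0.00257). With the tissue score in the model, the median over the Smarca2 H3K27ac peaks was 0.08 in place of -0.56.

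Smarcc1 (BAF155) forms the scaffold of the same complexes. A weak H3K4me3 peak in its body at chr9:110170688-110171216 ran from -1.17 to 1.83 in aged 3 libraries (median 0.92), against 1.60 to 2.56 in young ones (median 2.07), with 8 of 10 aged 3 libraries under the young range. It changed by -1.38 ± 0.31 (adjusted p = 0.00252) and rested on a median of 18 reads per library, with 2 in the lowest. The Smarcc1 promoter changed by -0.45 ± 0.13 (adjusted p = 0.0116) for H3K27ac, and all 6 of its H3K27ac peaks had a change below 0. Arid1b and Arid1a, which encode alternative large DNA-binding subunits, had promoter H3K27ac changes of -0.26 ± 0.09 (adjusted p = 0.0278, lost in 4 of 17 refits) and -0.24 ± 0.09 (adjusted p = 0.0462, lost in 13 of 17 refits). Arid1b had 41 H3K27ac peaks, more than any other SWI/SNF gene, of which 1 rose and 5 fell, with 1 of these 6 calls made in every refit.

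The Arid1b peak at chr17:5247481-5248516 was 1 of 2 member H3K27ac peaks whose aged 3 and young libraries did not overlap, which is 0.517% of the members, where 0.559% of all H3K27ac peaks did not overlap. For H3K4me3 it was 0 members, where 1.27% of all peaks did not overlap. The Arid1b peak ran from -0.61 to 0.66 in aged 3 libraries (median 0.30), against 0.88 to 1.75 in young ones (median 1.05), a change of -0.97 ± 0.27 (adjusted p = 0.0105). At 286656 bases from the gene start, a neighbouring H3K27ac peak changed the other way, by 0.74 ± 0.24 (adjusted p = 0.0243, lost without aged 3 replicate 6), and so did H3K4me3 at 301501 bases, by 1.01 ± 0.30 (adjusted p = 0.0124, and -0.09 with the tissue score). The genes Smarca4 and Smarcb1, which encode the other ATPase and a core subunit, had H3K27ac promoter changes of -0.22 ± 0.10 (adjusted p = 0.0829) and -0.22 ± 0.09 (adjusted p = 0.0686), which missed the threshold.

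Called peaks of the CHD remodellers were higher, and most belonged to 1 gene. The family had 6 higher and 0 lower of 22 H3K4me3 peaks and 5 higher and 0 lower of 38 H3K27ac peaks, which is 27.3% and 13.2% higher. The direction of the calls was the same under median centring (6 and 5 higher) and as deposited (3 and 4 higher). All of the called peaks lay away from promoters, and 9 of the 11 belonged to Chd9, an ATP-dependent remodeller with paired chromodomains. Chd9 had 5 of 9 H3K4me3 peaks and 4 of 13 H3K27ac peaks called higher, 3 of each made in every refit. The CHD promoters had median changes of -0.005 for H3K4me3 and -0.15 for H3K27ac.

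A broad Chd9 H3K4me3 domain at chr8:90886050-90893225, 61335 bases inside the gene, ran from -1.70 to 1.10 log2 RPKM in the 10 aged 3 libraries (median -0.05), against -2.14 to -1.26 in the 7 young libraries (median -1.56). Every aged 3 library but 1 lay above the highest young library. Values were -1.28 to 0.21 in the 6 aged 2 libraries (median -0.82), and -0.92, -1.07, -1.62 and -1.04 in the 4 aged 1 libraries. The change was 1.49 ± 0.32 (adjusted p = 0.0017). These levels are low, where the median level over all H3K4me3 peaks was 2.70 log2 RPKM.

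Just before the Chd9 start, with peak centres at -3047 (H3K27ac) and -2775 (H3K4me3) bases from it, both marks were higher. H3K27ac at chr8:90824434-90826076 ran from 0.02 to 3.06 in aged 3 libraries (median 1.95), against -1.39 to 0.72 in young ones (median -0.26). All 10 aged 3 libraries were above the young mean and 8 above the highest young library, and the change was 1.85 ± 0.46 (adjusted p = 0.00674). For H3K4me3 at chr8:90825030-90826024 the change was 1.94 ± 0.47 (adjusted p = 0.00399). The Chd9 promoter itself changed by 0.24 ± 0.11 (adjusted p = 0.0815) for H3K4me3 and by -0.01 ± 0.11 (adjusted p = 0.969) for H3K27ac, neither past the threshold. At chr8:90884250-90896326, over the broad domain, the aged 3 and young H3K27ac libraries did not overlap, with a change of 0.54 ± 0.20 (adjusted p = 0.0381, lost in 10 of 17 refits).

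Chd7 and Chd6 had 1 called peak each. Chd7, mutated in human CHARGE syndrome, had an H3K4me3 peak 58750 bases inside the gene that changed by 0.78 ± 0.29 (adjusted p = 0.0435, lost in 11 of 17 refits). Chd6 had an H3K27ac peak that changed by 0.43 ± 0.16 (adjusted p = 0.046, lost in 13 of 17 refits). Chd4, the ATPase of the NuRD deacetylase complex, had promoter changes of -0.03 ± 0.08 (adjusted p = 0.78) for H3K4me3 and -0.28 ± 0.14 (adjusted p = 0.118) for H3K27ac. The 5 H3K4me3 and 6 H3K27ac peaks of the ISWI and other Smarc genes had no call in either direction.

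**Figure D3:**
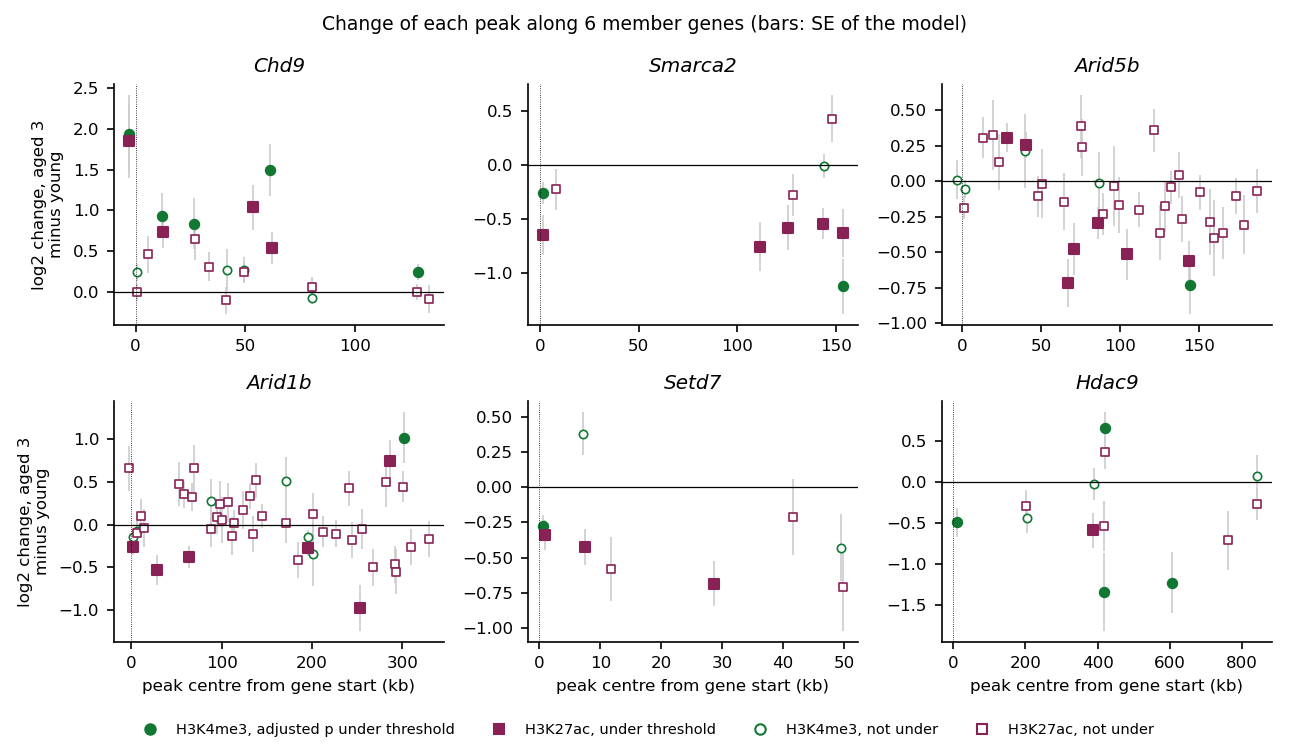
The log2 change between aged 3 and young uteri (y axis, with SE bars) of each peak of Chd9, Smarca2, Arid5b, Arid1b, Setd7 and Hdac9 against its distance from the gene start in kb (x axis), for H3K4me3 and H3K27ac. The 6 genes were chosen after their values were seen; called Chd9 peaks lie above 0, called Smarca2 and Setd7 peaks below 0, and Arid5b, Arid1b and Hdac9 have called peaks on both sides.

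Other ARID factors carry the DNA-binding domain that gives them their name. They had 0 higher and 3 lower of 11 H3K4me3 peaks, and 3 higher and 6 lower of 47 H3K27ac peaks, which is 0% higher and 27.3% lower for H3K4me3 and 6.38% higher and 12.8% lower for H3K27ac. Arid3a, a transcription factor studied in B cells and the placenta, had the smallest p of all member H3K27ac peaks, at chr10:79932482-79933386, 5891 bases inside the gene. It ran from 0.05 to 1.41 log2 RPKM in the 10 aged 3 libraries (median 0.75), against 1.17 to 1.96 in the 7 young libraries (median 1.77). Values were 0.29 to 1.14 in the 6 aged 2 libraries (median 0.96), and 1.18, 1.18, 1.43 and 1.66 in the 4 aged 1 libraries. Of the aged 3 libraries 9 were below the lowest young one, and the change was -0.99 ± 0.20 (adjusted p = 0.00249). The Arid3a promoter, which also holds a start of Gm40715, changed by -0.35 ± 0.09 (adjusted p = 0.00715) for H3K4me3.

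Arid5b, which pairs with the demethylase Phf2, had 33 H3K27ac peaks, 2 called higher and 5 called lower, with 2 of these 7 calls made in every refit. The strongest, at chr10:68211573-68213306, ran from 0.84 to 1.91 in aged 3 libraries (median 1.15), against 1.36 to 2.35 in young ones (median 1.92) and changed by -0.72 ± 0.17 (adjusted p = 0.00539). H3K4me3 at chr10:68131981-68137578 ran from 1.85 to 3.67 in aged 3 libraries (median 2.67), against 3.32 to 3.65 in young ones (median 3.45), with 8 aged 3 libraries below and 1 above the young range, and changed by -0.73 ± 0.20 (adjusted p = 0.00943, and 0.082 with the tissue score). Closer to the gene start, at 28433 bases, an H3K27ac peak changed by 0.31 ± 0.10 (adjusted p = 0.0262, lost without young replicate 2 or young replicate 3). Arid4b, a subunit of Sin3 deacetylase complexes, had an H3K27ac peak 4778 bases inside the gene that ran from 0.63 to 1.57 in aged 3 libraries (median 1.18), against -0.38 to 0.96 in young ones (median 0.07). All 10 aged 3 libraries were above the young mean, 6 of them above the young range, and it changed by 0.83 ± 0.21 (adjusted p = 0.00826). Its partner Arid4a had an H3K4me3 peak that changed by -0.55 ± 0.16 (adjusted p = 0.0125, and 0.055 with the tissue score).

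**Figure D4:**
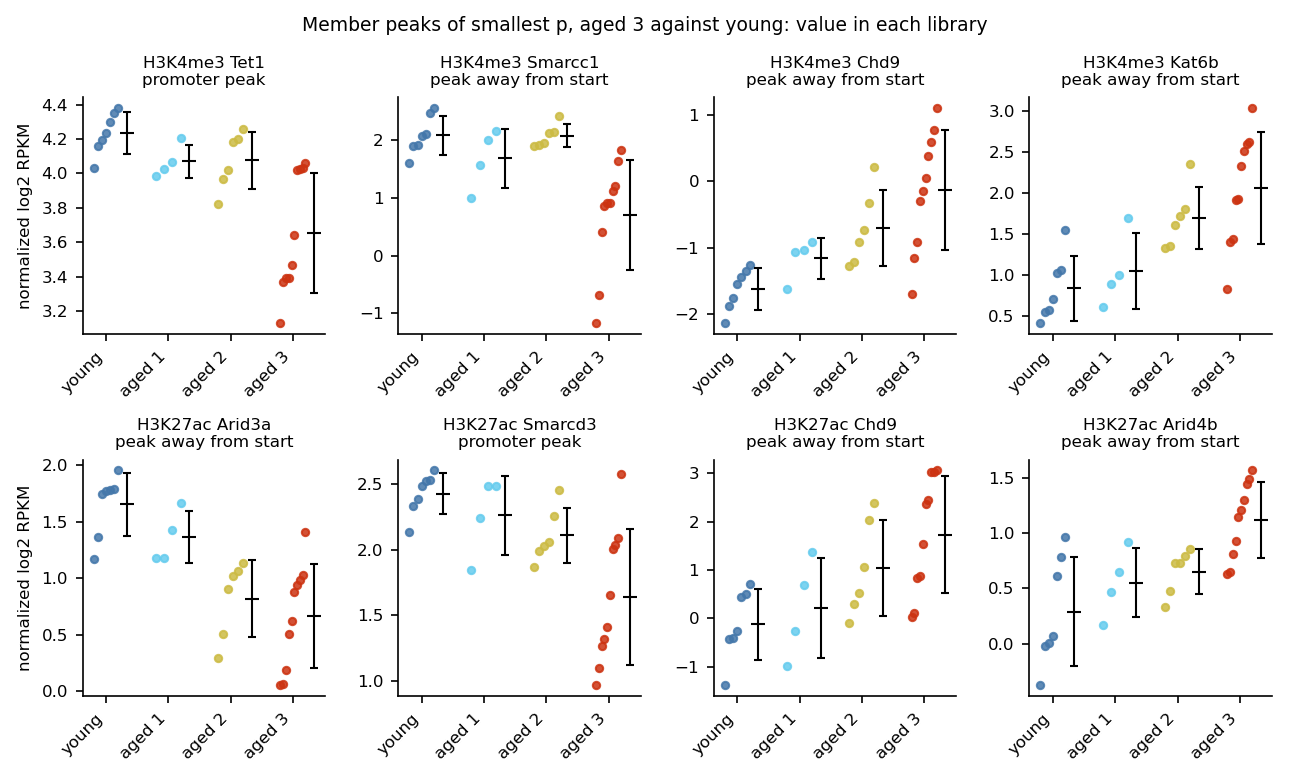
Level in log2 RPKM (y axis) of 8 member peaks in every library, by age group from young to aged 3 (x axis), with the mean and SD of each group as a line and bar. H3K4me3 at the Tet1 promoter and in Smarcc1 and H3K27ac in Arid3a and at the Smarcd3 promoter were lower in aged 3 uteri than in young ones; the peaks of Chd9, Kat6b and Arid4b were higher.

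Among the DNA methylation enzymes, Tet1, which oxidizes methylated cytosine, had the smallest p of all members for H3K4me3. Its promoter peak at chr10:62885722-62887724 ran from 3.13 to 4.06 log2 RPKM in the 10 aged 3 libraries (median 3.56), against 4.03 to 4.38 in the 7 young libraries (median 4.23). Every aged 3 library lay under the young mean and 9 of 10 below the lowest young library. Values were 3.82 to 4.26 in the 6 aged 2 libraries (median 4.10), and 4.07, 4.21, 4.03 and 3.98 in the 4 aged 1 libraries. The change was -0.58 ± 0.11 (adjusted p = 0.000727), and the other Tet1 H3K4me3 peak changed by -0.34 ± 0.12 (adjusted p = 0.0397, lost in 11 of 17 refits, and 0.062 with the tissue score). H3K27ac changed by -0.44 ± 0.19 (adjusted p = 0.0792) over the Tet1 start printed above, which missed the threshold, and by -0.53 ± 0.19 (adjusted p = 0.0331, lost in 8 of 17 refits, and 0.032 with the tissue score) at the second site.

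Peaks inside the genes of the related enzymes Tet2 and Tet3 rose, by 0.95 ± 0.26 (adjusted p = 0.012) and 0.97 ± 0.36 (adjusted p = 0.0442, lost in 11 of 17 refits) for H3K27ac, and 9 of 10 aged 3 libraries were above the highest young one for Tet2. Dnmt3l, a partner without catalytic activity of the de novo methyltransferases, changed by -0.88 ± 0.25 (adjusted p = 0.0139) for H3K27ac at an alternate start. The promoter of Dnmt1, which copies methylation at replication, changed by -0.07 ± 0.06 (adjusted p = 0.366) for H3K4me3. Dnmt3a, which sets new methylation, had 2 H3K4me3 promoter peaks. The one 5919 bases from the gene start changed by -0.27 ± 0.12 (adjusted p = 0.0822), with 7 aged 3 libraries below the lowest young one, and the one at 90054 bases by 0.06 ± 0.13 (adjusted p = 0.76). None of these 3 peaks was called. In all, the DNA methyltransferases and Tet enzymes had 0 higher and 2 lower of 9 H3K4me3 peaks and 2 higher and 2 lower of 34 H3K27ac peaks, which is 22.2% and 11.8% called.

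The group of H3K4 methyltransferase genes, which here includes Setd7, had 0 higher and 3 lower of 10 H3K4me3 peaks and 0 higher and 4 lower of 20 H3K27ac peaks, which is 30% and 20% lower. Setd7 held 1 of these H3K4me3 calls and 3 of the H3K27ac calls. Kmt2a (MLL1) had an H3K4me3 promoter peak at chr9:44878980-44883566 that ran from 3.48 to 3.88 in aged 3 libraries (median 3.56), against 3.62 to 3.99 in young ones (median 3.88). Below the lowest young library lay 8 aged 3 libraries, and the change was small, -0.25 ± 0.06 (adjusted p = 0.00409). The promoters of its relatives Kmt2b, Kmt2c, Kmt2d and Setd1a changed by 0.12 ± 0.06 (adjusted p = 0.117), -0.08 ± 0.05 (adjusted p = 0.242), 0.02 ± 0.06 (adjusted p = 0.816) and -0.06 ± 0.06 (adjusted p = 0.521) for H3K4me3, and none of them was called.

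Setd7, a lysine methyltransferase that monomethylates H3K4 in vitro and many other proteins, was lower in both marks. All 6 of its H3K27ac peaks had changes below 0 and 3 were called, all in every refit. The strongest at chr3:51530934-51533385 ran from 1.08 to 2.09 in aged 3 libraries (median 1.40), against 1.69 to 2.43 in young ones (median 2.29), with all 10 aged 3 libraries under the young mean and 7 below the young range, and changed by -0.69 ± 0.16 (adjusted p = 0.00523). Its promoter changed by -0.28 ± 0.08 (adjusted p = 0.0112, and 0.016 with the tissue score) for H3K4me3 and -0.34 ± 0.11 (adjusted p = 0.022) for H3K27ac. Kmt2c (MLL3), which acts at enhancers, had an H3K27ac peak 201401 bases inside the gene that changed by -0.95 ± 0.27 (adjusted p = 0.0118).

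The H3K4 demethylases had 0 of 4 H3K4me3 peaks called and 0 higher and 2 lower of 9 H3K27ac peaks, and the H3K27 demethylases 0 higher and 1 lower of 3 H3K4me3 peaks and of 7 H3K27ac peaks. Kdm5c, which removes H3K4 di- and trimethylation, changed by -0.35 ± 0.12 (adjusted p = 0.0254, lost in 4 of 17 refits) for promoter H3K27ac, with all 10 aged 3 libraries under the young mean, and by -0.004 ± 0.06 (adjusted p = 0.962) for H3K4me3. Kdm5b changed by -0.37 ± 0.14 (adjusted p = 0.0468, lost in 13 of 17 refits) in an H3K27ac peak before its start. Kdm6b (JMJD3), the stimulus-induced H3K27 demethylase, changed by -0.40 ± 0.12 (adjusted p = 0.0118, and 0.0067 with the tissue score) for H3K4me3 at an alternate start. Kdm6a (UTX) had the highest marked promoter among the members, above 99.8% of all H3K4me3 promoter peaks and 99.9% of all H3K27ac promoter peaks by mean level, and changed by -0.24 ± 0.07 (adjusted p = 0.0185) for H3K27ac and by -0.11 ± 0.06 (adjusted p = 0.158) for H3K4me3.

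In PRC2, which writes H3K27 methylation, the catalytic subunit gene Ezh2 had an H3K4me3 promoter level of 4.48 ± 0.07 log2 RPKM in aged 3 uteri (SD, n = 10) and 4.63 ± 0.05 in young uteri (SD, n = 7). All 10 aged 3 libraries were under the young mean, and the change was -0.15 ± 0.05 (adjusted p = 0.02). Its promoter also holds a start of F830010H11Rik, and it was the 1 call among 5 PRC2 H3K4me3 peaks. Its partners Eed and Suz12 changed by 0.10 ± 0.06 (adjusted p = 0.169) and -0.003 ± 0.05 (adjusted p = 0.972) for H3K4me3, and no PRC2 gene had a called H3K27ac peak among 6.

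Demethylases of H3K9 and H3K36 moved both ways, with 1 higher and 1 lower of 15 H3K4me3 peaks and 3 higher and 2 lower of 23 H3K27ac peaks, which is 13.3% and 21.7% called. In Kdm2a, which removes H3K36 dimethylation at CpG islands, H3K27ac at chr19:4314609-4316076 ran from 0.35 to 1.60 in aged 3 libraries (median 0.83), against 1.41 to 1.93 in young ones (median 1.60). All but 1 of the aged 3 libraries were below the lowest young one, and the change was -0.75 ± 0.16 (adjusted p = 0.00345). Its paralogue Kdm2b, which brings a Polycomb complex to CpG islands, had 3 H3K27ac peaks called higher, by 0.90 ± 0.29 (adjusted p = 0.0231, lost without young replicate 7, and -0.046 with the tissue score), 0.87 ± 0.29 (adjusted p = 0.0276, lost in 4 of 17 refits) and 0.60 ± 0.21 (adjusted p = 0.0373, lost in 11 of 17 refits, and -0.09 with the tissue score). H3K4me3 in Kdm2b ran from 1.09 to 3.21 in aged 3 libraries (median 2.60), against 1.23 to 2.42 in young ones (median 1.56), and changed by 0.79 ± 0.29 (adjusted p = 0.0389, lost in 12 of 17 refits). Kdm4a and Kdm7a promoters were lower, with changes of -0.36 ± 0.11 (adjusted p = 0.0179) for H3K27ac and -0.25 ± 0.08 (adjusted p = 0.0256, lost in 4 of 17 refits) for H3K4me3.

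Other lysine methyltransferases had 1 higher and 0 lower of 9 H3K4me3 peaks and 3 higher and 1 lower of 15 H3K27ac peaks, which is 11.1% and 26.7% called. Setd4 had a site 19066 bases inside the gene at which both marks were called, with H3K4me3 at 0.50 to 2.44 in aged 3 libraries (median 1.49), against -0.02 to 1.75 in young ones (median 0.43). It changed by 0.95 ± 0.29 (adjusted p = 0.0165) for H3K4me3 and 0.99 ± 0.31 (adjusted p = 0.0183, lost without young replicate 3) for H3K27ac. Setd5 had H3K27ac changes of 0.85 ± 0.29 (adjusted p = 0.0313, lost in 9 of 17 refits) and 0.52 ± 0.19 (adjusted p = 0.0394, lost in 10 of 17 refits). The promoter of Kmt5c, which trimethylates H4K20, also holds a start of Gm42369 and was lower, with a change of -0.38 ± 0.10 (adjusted p = 0.0102). Arginine methyltransferases had 0 higher and 1 lower of 7 H3K4me3 peaks and 0 higher and 2 lower of 5 H3K27ac peaks, at the promoters of Prmt9 (-0.42 ± 0.11, adjusted p = 0.0108) and Prmt2 (-0.42 ± 0.16, adjusted p = 0.0474, lost in 12 of 17 refits) for H3K27ac and Prmt3 (-0.29 ± 0.11, adjusted p = 0.045, lost in 12 of 17 refits) for H3K4me3.

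The acetyltransferases had 4 higher and 0 lower of 13 H3K4me3 peaks, 2 higher when the values were used as deposited, and 3 higher and 3 lower of 43 H3K27ac peaks, which is 30.8% and 14% called. Kat6b (MORF), a MYST-family acetyltransferase, had an H3K4me3 peak at chr14:21589922-21590561, 91025 bases inside the gene, that ran from 0.83 to 3.03 in aged 3 libraries (median 2.12), against 0.41 to 1.54 in young ones (median 0.70). Of the aged 3 libraries 7 were above the highest young one, and the change was 1.22 ± 0.27 (adjusted p = 0.00191). Away from the start of Kat8 (MOF), which acetylates H4K16, H3K4me3 peaks assigned to the gene were centred 2989 and 15703 bases from it. They changed by 0.89 ± 0.21 (adjusted p = 0.00378) and 0.48 ± 0.13 (adjusted p = 0.00725), and by 0.53 and 0.08 with the tissue score. At the nearer of these, 8 of 10 aged 3 libraries were above the highest young one. Whether the farther peak lies inside Kat8 or over a neighbouring gene was not examined, and it is among the 4 higher calls. Kat7 (HBO1) was 1 of 2 members with a called higher promoter, by 0.12 ± 0.05 (adjusted p = 0.0482, lost in 13 of 17 refits), and this promoter also holds a start of Gm11520.

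Of the enzymes that write H3K27ac, Ep300 had a promoter H3K27ac level of 2.53 ± 0.24 log2 RPKM in aged 3 uteri (SD, n = 10) and 2.82 ± 0.07 in young uteri (SD, n = 7), a change of -0.29 ± 0.09 (adjusted p = 0.0184). Crebbp changed by 0.04 ± 0.16 (adjusted p = 0.852). Among the other acetyltransferases, Kat2b (PCAF) was lower for H3K27ac, with a change of -0.42 ± 0.14 (adjusted p = 0.0224) at its promoter. At 83850 bases into the gene the change was -0.85 ± 0.25 (adjusted p = 0.0152, and 0.024 with the tissue score). Kat6a had an H3K27ac peak that was higher by 0.66 ± 0.21 (adjusted p = 0.0198).

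Class II deacetylases, several of which shuttle between nucleus and cytoplasm and bind MEF2 factors, had 2 higher and 5 lower of 15 H3K4me3 peaks and 2 higher and 7 lower of 37 H3K27ac peaks. That is 46.7% called for H3K4me3, where 30.7% of all peaks were, and 24.3% for H3K27ac, where 29.3% were. Hdac5 had a promoter peak at chr11:102227280-102230856 whose H3K4me3 ran from 2.46 to 3.61 in aged 3 libraries (median 3.01), against 3.35 to 3.65 in young ones (median 3.54). Of the aged 3 libraries 6 were below the young range, and the change was -0.46 ± 0.13 (adjusted p = 0.00988, and 0.02 with the tissue score). H3K27ac there changed by -0.40 ± 0.14 (adjusted p = 0.0299, lost in 6 of 17 refits), whereas an H3K27ac peak 4875 bases into the gene changed by 0.56 ± 0.18 (adjusted p = 0.0211, lost without young replicate 3). Hdac9 had 1 H3K4me3 peak higher, with a change of 0.67 ± 0.19 (adjusted p = 0.0106), and 3 lower, with changes of -1.23 ± 0.37 (adjusted p = 0.0144), -1.34 ± 0.48 (adjusted p = 0.0336, lost in 6 of 17 refits) and -0.49 ± 0.18 (adjusted p = 0.036, lost in 10 of 17 refits). Hdac4 had 4 H3K27ac peaks called lower, which were lost in 11, 2, 1 and 1 of the 17 refits, and 1 called higher in every refit. The promoter of Hdac10, which also holds a start of Gm46530, changed by -0.21 ± 0.07 (adjusted p = 0.0206, lost without young replicate 3) for H3K4me3 and -0.37 ± 0.13 (adjusted p = 0.0314, lost in 6 of 17 refits) for H3K27ac.

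Hdac7 was the other member with a called higher promoter, by 0.31 ± 0.12 (adjusted p = 0.0442, lost in 12 of 17 refits) for H3K4me3 at an alternate start, in a peak that also holds a start of Gm33636. Of class I and IV, 0 of 5 H3K4me3 peaks and 1 of 7 H3K27ac peaks were called. The called peak, 6611 bases into Hdac1, ran from 1.04 to 2.24 in aged 3 libraries (median 1.60), against -0.12 to 1.61 in young ones (median 0.80) and changed by 0.83 ± 0.23 (adjusted p = 0.0114). At the promoters of Hdac1, Hdac2 and Hdac3 the H3K27ac changes were -0.25 ± 0.15 (adjusted p = 0.185), -0.16 ± 0.11 (adjusted p = 0.248) and -0.12 ± 0.11 (adjusted p = 0.411). Among sirtuins, which need NAD, a peak assigned to Sirt2 near a start of Gm19897 changed by -0.47 ± 0.17 (adjusted p = 0.0373, lost in 9 of 17 refits, and 0.032 with the tissue score), the 1 call among 9 H3K27ac peaks, and 0 of 8 H3K4me3 peaks were called.

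The intermediate ages had no called member. For aged 2 over young uteri, 0 members were called in either mark (0.217% of all H3K4me3 peaks and 0.011% of all H3K27ac peaks), and 9 and 27 member peaks had an unadjusted limma p under 0.05. For aged 1 over young uteri, 0 were called (0.00387% and 0% of all peaks), with 4 and 6 at an unadjusted p under 0.05. As shares of the members, these unadjusted counts are 5.33% and 6.98% for aged 2 and 2.37% and 1.55% for aged 1. The threshold passes a share of 0.05 where nothing changes. For aged 3 over aged 2 uteri, 0 were called (0.205% and 0%), with 32 and 41 at an unadjusted p under 0.05, and limma-voom on recovered reads called 3 H3K4me3 members and 0 in each of the other comparisons of these ages. Without aged 2 replicate 5 or aged 3 replicate 3, 4 or 10, limma called 6, 6, 7 and 13 H3K4me3 members between aged 3 and aged 2 uteri. The smallest adjusted p between aged 3 and aged 2 was 0.0666, for the Smarcc1 H3K4me3 peak described above, with a log2 change of -1.37 ± 0.33. Between aged 2 and young uteri it was 0.153, for an H3K27ac peak of Dnmt3a with a change of -0.97 ± 0.22. The same gene had the smallest p for H3K27ac between aged 1 and young uteri, with a change of -0.70 ± 0.24.

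Over the young libraries, which all 3 comparisons share, the member H3K27ac promoters had median changes of 0.02 for aged 1, -0.07 for aged 2 and -0.18 for aged 3. All H3K27ac promoter peaks had medians of 0.02, -0.04 and -0.14 in the same order.

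**Figure D5:**
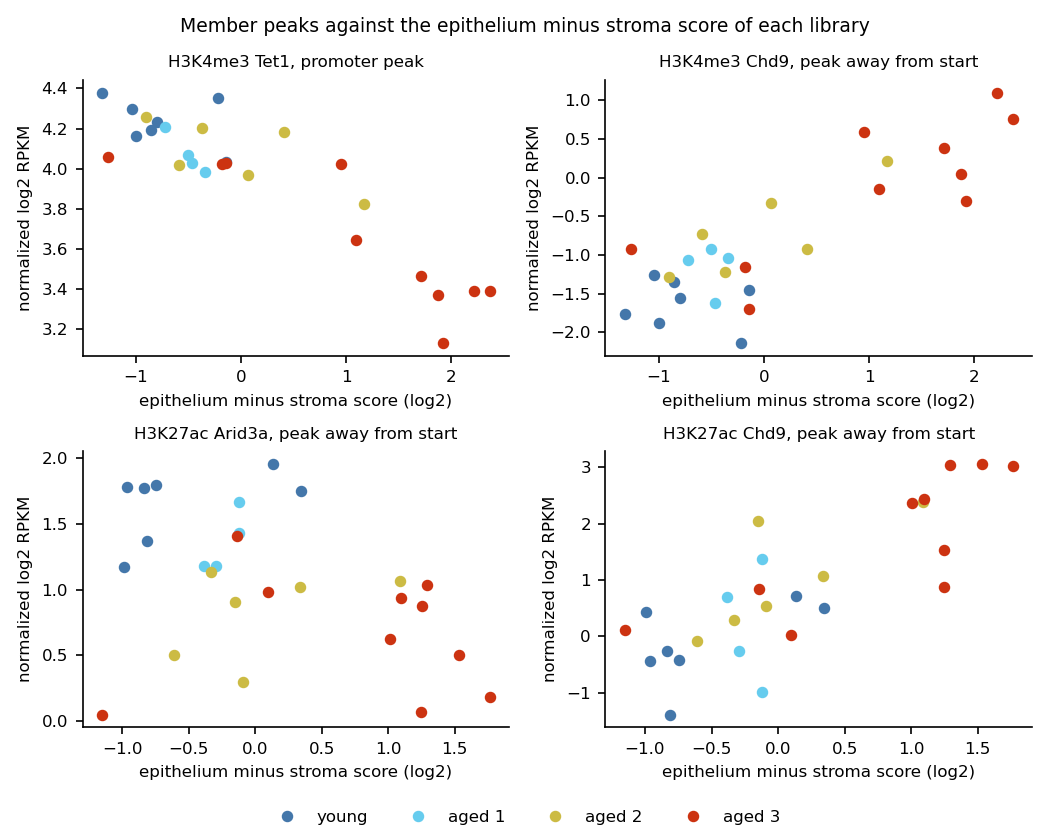
Level in log2 RPKM (y axis) of H3K4me3 at the Tet1 promoter and in Chd9 and of H3K27ac in Arid3a and before the Chd9 start, against the epithelium minus stroma score of the same library (x axis), coloured by age group. Aged 3 replicates 3, 4 and 10, with H3K4me3 scores of -0.18, -0.14 and -1.26, lie among the low scores and the other aged 3 libraries at higher ones.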

How the data were processed

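Both marks were profiled in 27 uteri, and 5 input libraries were not used. The authors deposited, for each mark, one table of log2 RPKM values per peak and library. The submitters' processing notes name build GRCm38, the aligner Bowtie2 and the peak caller MACS2 2.2.9.1. They also name deepTools 3.5.1, ChIPseeker 1.34.1, DiffBind 3.8.0 and DESeq2, with settings and order not given in the sources used here. Every value column was matched to a sample through its label, with 0 unmapped. The 8 peaks on chromosome Y in each table were left out. All values (100%) were whole reads within 0.05 of a read, with a peak without reads at 0.9 reads, which gave total reads per library. The median library held 10.0 M reads for H3K4me3 and 11.2 M for H3K27ac, with 36.3 to 75.8% and 32.3 to 48.7% of them in peaks.

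Deposited log2 values were quantile normalized within each mark and fitted with limma 3.58.1 (R 4.3.3, lmFit and eBayes with trend) on 4 age group means, with two-sided tests and Benjamini-Hochberg adjustment over all tested peaks at 0.05. "Higher" and "lower" refer to the log2 change of the older group over the younger. The fit was run on simulated data with independent noise and few changed peaks. That setting does not cover shifts shared by many peaks of a library, such as those of tissue make-up. No 2 libraries were identical. Replicates are separate animals per the labels. RefSeq starts came from a table of build GRCm38.p6, which 108 of the 109 members matched. The member rule uses symbols alone, but it and the lists were chosen with earlier results of these data known. The text names, per mark and direction, the 8 called members of smallest p (1 peak per gene), promoter peaks of the main writers and erasers, and in each role group up to 4 genes with the smallest p and the gene with most peaks; other peaks of Chd9, Smarca2, Smarcc1, Smarcd3, Smarcb1, Arid1a, Arid1b, Arid5b, Setd5, Kat8, Kdm2b, Tet1, Hdac4, Hdac5 and Hdac9, and the promoters of Chd4, Smarca4, Dnmt1 and Dnmt3a, were chosen after their values were seen. Alternatives were the values as deposited, median centring, a filter on low values, replicate, code digit, mouse number series and tissue score terms, subsets of libraries, and, chosen after seeing the data, limma-voom on recovered reads. Figures were drawn with matplotlib 3.10.9.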

Additional observations from a re-analysis of the deposited data

Results flagged for a closer look

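A library far from the others of its group was found in 4 of 128 groups of named peaks examined by Dixon's test, which flags about 1 in 20 groups by chance. H3K4me3 at the Hdac9 peak starting at chromosome 12 position 34495851 was 3.93 log2 RPKM in young replicate 5, where the other young libraries ran from 2.70 to 3.13. The same library had 1.75 at the Setd4 peak, where the other young libraries ran from -0.02 to 0.71. H3K4me3 at the Kdm2b peak was 1.09 in aged 3 replicate 10, where the other aged 3 libraries ran from 2.18 to 3.21. H3K27ac at the Arid1b peak whose groups do not overlap was 1.75 in young replicate 1, where the other young libraries ran from 0.88 to 1.22.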

How the results depend on the processing

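Between aged 3 and young uteri, 38 H3K4me3 and 70 H3K27ac member peaks were called. H3K4me3 calls fell to 21 on the values as deposited and 25 after a filter on low values, which left fewer peaks tested. The code digit as a factor gave 10 and 2, the mouse number series as a factor 14 and 22, the libraries without digit 6 gave 8 and 5, and both the tissue score and the libraries numbered under 100 alone gave 0 and 0. With limma-voom, 55 and 115 were called, and 3 H3K4me3 members between aged 3 and aged 2. Leaving out 1 library at a time gave 24 to 51 H3K4me3 and 43 to 107 H3K27ac calls between aged 3 and young, and 0 to 13 H3K4me3 calls between aged 3 and aged 2; the other comparisons gave 0. With the tissue score the H3K4me3 changes turned sign at the Setd7 (0.0159), Arid5b (0.0816), Kdm6b (0.0067), Hdac5 (0.0204) and Arid1b (-0.0898) peaks; of all called members, 10 of 38 H3K4me3 and 7 of 70 H3K27ac changes did. The cause of these differences was not tested. Shares of all peaks called under each setting are not given here, so these counts do not set the members apart from other peaks.

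Replicate numbers did not pair the animals, with correlations of same-numbered aged 3 and young libraries of -0.224 to 0.201 for H3K4me3 and -0.3 to 0.266 for H3K27ac; with a replicate block 31 and 59 members were called. The low H3K4me3 peak in Smarcc1, at 2 reads in 1 library, is limited by depth, and aged 1, with 4 animals, by its number.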
